A study of Mus musculus with 18 samples.

Results

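The genes described here are 29 lysosomal enzymes and partners other than the cathepsins, chosen by symbol from the 43309 genes of the deposited table. Earlier results of these data were known when they were chosen. They act on glycosaminoglycans, glycoproteins, glycogen, sphingolipids, neutral lipids, nucleic acids, phosphate esters and peptides. All 29 were in the table and all 29 were among the 21336 genes tested. Not every member is a hydrolase in the strict sense: Hgsnat codes for an acetyltransferase of heparan sulphate breakdown and Gm2a for an activator protein that presents a ganglioside to its enzyme. Tpp1 codes for a peptidase, and it was kept because the list includes it.

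The libraries were from macrophages cultured from mouse bone marrow, in a study of how progranulin (PGRN, gene Grn) and the adaptor 14-3-3ε (gene Ywhae) bear on macrophage polarization. Marrow of the C57BL/6 strain was cultured with M-CSF (10 ng/ml) for 7 days, and the macrophages then received LPS (100 ng/ml) with interferon gamma (20 ng/ml), called M1, or IL-4 (20 ng/ml), called M2, for 18 h. With wild-type (WT), PGRN knockout and 14-3-3ε knockout cells there were 6 groups of 3 libraries, 18 in all. The labels call the 14-3-3ε knockout myeloid, the sources used here do not give the promoter that drives its deletion, and nothing says whether the WT cells carry that driver or a floxed allele. The labels do not say that the 3 libraries of a group came from separate mice or cultures, so every p-value here speaks only of the spread between libraries, which may be technical. Values are normalised read counts, deposited by the authors on a log2 scale, and differences are log2 fold changes of the normalised count plus 1 with their standard error.

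Lysosomal hydrolases are made in the endoplasmic reticulum, most are tagged with mannose 6-phosphate in the Golgi, and receptors carry them to the acidic lysosome, where they take macromolecules apart. In macrophages they digest engulfed cells, microbes, lipoproteins and matrix, and inherited loss of single members causes lysosomal storage diseases. Progranulin is itself delivered to lysosomes, partly together with prosaposin, and is cut there into granulin peptides. Many lysosomal genes carry the letters CACGTG near their start, a sequence bound by the factors TFEB, TFE3 and MITF.

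The promoters come first, because most members moved together in some of the comparisons. RefSeq promoters on GRCm38.p6, from 250 bases before the start to 50 after it, were found for 25 of the 29 members; Galns, Hgsnat, Asah1 and Aga had no entry. CACGTG, which reads the same on both strands, was in 6 of these 25 promoters, 24%, against 7.15% of all 32851 promoters and 9.14% of the 16176 promoters of tested genes. The same 6 members, Glb1, Naglu, Gaa, Sgsh, Arsa and Gla, hold the longer TCACGTG on either strand, against 3.77% of all promoters and 5.29% of those of tested genes. Each site is shown in a window of 40 bases on the strand of its gene, 5′ to 3′, with CACGTG in capitals.
Glb1 chr9:114401013-114401052 plus strand: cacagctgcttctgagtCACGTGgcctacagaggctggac
Naglu chr11:101070004-101070043 plus strand: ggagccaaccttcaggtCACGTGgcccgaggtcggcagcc
Gaa chr11:119267806-119267845 plus strand: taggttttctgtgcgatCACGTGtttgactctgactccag
Sgsh chr11:119355517-119355556 minus strand: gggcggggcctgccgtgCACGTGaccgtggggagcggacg
Arsa chr15:89477418-89477457 minus strand: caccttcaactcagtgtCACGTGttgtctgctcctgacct
Gla chrX:134601210-134601249 minus strand: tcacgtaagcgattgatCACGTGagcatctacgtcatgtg
Gla chrX:134601177-134601216 minus strand: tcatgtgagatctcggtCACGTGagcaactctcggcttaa
Gla has both of the last windows, which overlap. A match is a description of letters and not evidence that a factor binds there.

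With all libraries in the fit, the 4 members with the largest response to loss of progranulin among those with an entry have no CACGTG in their promoters. They are shown because the results turn on these genes, as the 250 bases before the start, in lower case throughout.
Lipa chr19:34527475-34527724 minus strand: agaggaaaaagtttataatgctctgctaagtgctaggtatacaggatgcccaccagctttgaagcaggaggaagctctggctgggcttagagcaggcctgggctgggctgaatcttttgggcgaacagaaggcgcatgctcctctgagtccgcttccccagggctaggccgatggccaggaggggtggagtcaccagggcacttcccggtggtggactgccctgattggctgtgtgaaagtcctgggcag
Pld3 chr7:27553219-27553468 minus strand: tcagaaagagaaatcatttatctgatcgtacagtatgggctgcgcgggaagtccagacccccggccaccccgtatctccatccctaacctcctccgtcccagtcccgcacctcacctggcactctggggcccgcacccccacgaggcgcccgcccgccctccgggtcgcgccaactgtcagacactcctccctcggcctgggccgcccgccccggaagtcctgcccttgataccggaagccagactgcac
Tpp1 chr7:105752236-105752485 minus strand: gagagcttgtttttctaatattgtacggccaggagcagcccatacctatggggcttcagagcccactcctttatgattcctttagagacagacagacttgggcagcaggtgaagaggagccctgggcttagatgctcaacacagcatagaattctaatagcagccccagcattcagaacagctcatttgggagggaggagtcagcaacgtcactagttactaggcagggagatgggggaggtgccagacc
Man2b1 chr8:85083019-85083268 plus strand: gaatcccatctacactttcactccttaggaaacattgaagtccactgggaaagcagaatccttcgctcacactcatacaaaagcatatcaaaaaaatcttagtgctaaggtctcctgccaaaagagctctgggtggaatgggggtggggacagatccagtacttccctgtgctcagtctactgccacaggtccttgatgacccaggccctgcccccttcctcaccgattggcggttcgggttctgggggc
No match says only that these letters are not in this window. The windows and promoters to print were chosen after the values were seen.

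Depth ran from 5.16 M reads (WT M1 replicate 1) to 105 M reads (14-3-3ε knockout M1 replicate 1), and the lowest count of any member in any library was 106 reads. Grn differed by -8.24 (M1) and -10.14 (M2) in the PGRN knockout in log2 units. Ywhae was at 9859, 9021 and 9034 normalised counts in WT M1 and 6214, 5191 and 5537 in 14-3-3ε knockout M1, and in M2 at 9015, 8203 and 8999 and 5088, 4362 and 5131. The mean in the libraries labelled 14-3-3ε knockout was thus 60.7% (M1) and 55.6% (M2) of that in WT, so much of this transcript was still present. All 5 listed M1 markers were higher in M1 and all 5 M2 markers higher in M2 in each genotype. Every macrophage marker (7 of 7) and every stroma marker (12 of 12) was detected in every group. The summed macrophage level was 256002 to 431967 normalised counts in WT M1 and 128572 to 157880 in WT M2, and the summed stroma level 394340 to 640370 and 404961 to 523575, so the libraries labelled macrophage also hold RNA of the collagen genes and other stroma markers. Listed markers of other blood cells were low, with sums of at most 5788 for neutrophils and at most 3536 for erythroid cells and megakaryocytes.

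Some libraries stand apart. WT M1 replicate 1, the shallowest, had the lowest value of its group for 17 of 29 members and lay under 75% of the lower of the other libraries for 7 of 29, 24.1%, against 14.8% of 11033 genes with a mean of at least 100 normalised counts. These 7 were Tpp1, Asah1, Ids, Arsb, Lipa, Idua and Galc. Ribosomal-RNA-like transcripts took 14.8% of reads in WT M2 replicate 3 and 1.88% in WT M1 replicate 2, and at most 0.232% elsewhere. The WT libraries correlated with each other at 0.912 to 0.941 over genes in M1 and 0.932 to 0.969 in M2, against 0.971 or more within each knockout group.

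Most of these genes were higher in cells without progranulin, in both polarizations. In M1, 19 of 29 members (65.5%) were higher in the PGRN knockout, 0 were lower and 10 did not pass the test (limma, adjusted p under 0.05). Over all genes tested 14.2% were higher and 11.1% lower. Of these 21336 genes, 11033 had a mean of at least 100 normalised counts, as every member had. The shares of all genes given here and below were not matched to the members by level. In M2, 21 of 29 (72.4%) were higher and 0 lower, against 11.1% and 8.30% of all genes. The count of 0 lower members became 0 (M1) and 1 (M2) at an unadjusted p under 0.05, and 0 and 0 with voom precision weights. The median member difference was 0.50 in each polarization, against 0.01 (M1) and 0.00 (M2) over all genes. The members' summed level was 93081 to 109307 in the 3 WT M1 libraries and 148798 to 164423 in the PGRN knockout M1 libraries, without overlap. In M2 the sums were 111132 to 120804 in WT and 174320 to 199823 in the PGRN knockout, again without overlap. Single members whose 3 and 3 libraries did not overlap numbered 21 in M1 (31.8% of all genes) and 24 in M2 (39.1%). With only the compared groups in the fit, 13 members were higher in M1 (10.0% of all genes passed in either direction) and 22 in M2 (21.8%); the M1 calls lost there were those of Asah1, Hexa, Idua, Manba, Pla2g15 and Tpp1. In bulk samples, more or fewer cells of a type and more or less RNA per cell cannot be told apart.

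Marker lists moved alongside. The summed macrophage level was 443848 to 538071 in PGRN knockout M1 and 279016 to 326847 in PGRN knockout M2, above WT in both, and 4 of 7 macrophage markers were higher in each polarization, Cd68 (1.07 in M1, 0.65 in M2) and Mertk (1.88 and 2.08) among them. The summed stroma level was 321630 to 372360 and 260788 to 325240, below WT in both, with 4 of 12 stroma markers lower and 1 higher in M1 and 5 lower and 1 higher in M2. Their part in the result was not tested.

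**Figure D1:**
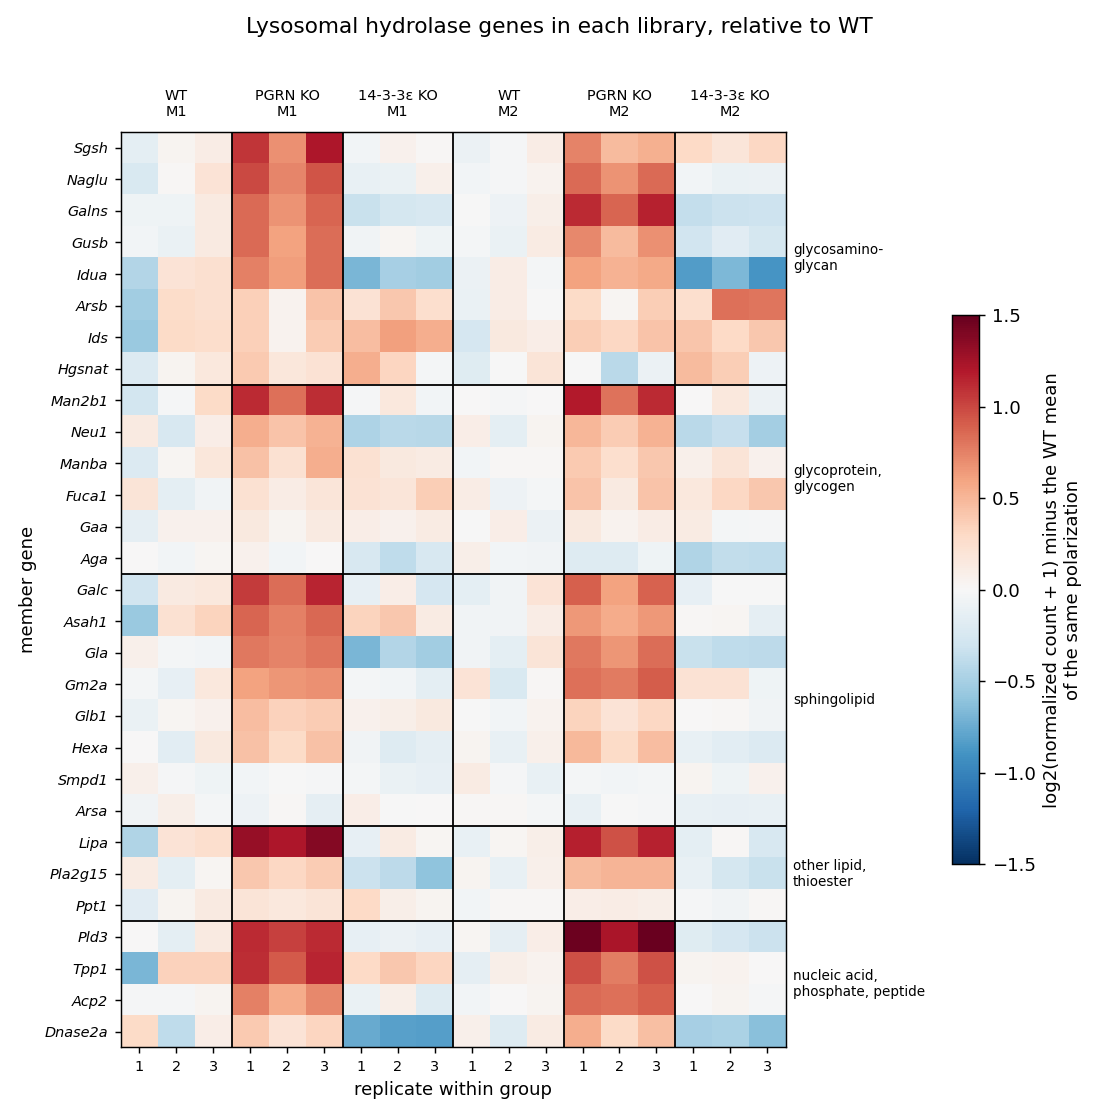
Each member (rows, grouped by role) in each of the 18 libraries (columns), as log2 of the normalised count plus 1 minus the WT mean of the same polarization; red is above and blue below that mean. The PGRN knockout columns are mostly red in both polarizations, from Lipa and Pld3 to Gm2a, and the 14-3-3ε knockout columns are mixed.

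Of the 8 glycosaminoglycan genes, 5 rose in M1 and the same 5 in M2: Galns, Sgsh, Naglu, Gusb and Idua. Galns (ENSMUSG00000015027, chr8:122578242-122611463; gene positions are those of GENCODE M21 on GRCm38), a sulphatase of keratan sulphate and chondroitin sulphate, was at 1793, 1782 and 2045 normalised counts in WT M1 and 3382, 2988 and 3419 in PGRN knockout M1. The M2 values were 1417, 1349.8 and 1519 in WT and 3099, 2617 and 3171 in the knockout. Every knockout library was above every WT library in both polarizations, with differences of 0.80 ± 0.08 in M1 (SE, n = 3 per group, limma adjusted p = 6.69e-06) and 1.05 ± 0.08 in M2 (adjusted p = 6.01e-07). The heparan sulphate enzymes Sgsh, an N-sulphatase, and Naglu, a glucosaminidase, rose by 0.99 and 0.89 in M1 and by 0.59 and 0.79 in M2. Gusb, the beta-glucuronidase, rose by 0.77 and 0.63, and Idua, the alpha-iduronidase, by 0.74 (0.52 without WT M1 replicate 1) and 0.56. The other 3 did not pass the test in either: the sulphatases Arsb (0.28, 0.23) and Ids (0.26, 0.37) and the acetyltransferase Hgsnat (0.26, -0.16). Naglu lies 1.35 Mb from Grn on chromosome 11, the nearest member to the deleted gene, and the others on that chromosome, Gaa, Sgsh and Gm2a, lie 16.8 to 47.3 Mb away.

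Of the 6 glycoprotein and glycogen genes, 3 rose in M1 and 4 in M2. Man2b1 (ENSMUSG00000005142, chr8:85083270-85098282), the lysosomal alpha-mannosidase, was at 4267, 5128 and 6336 in WT M1 and 11285, 9198 and 11163 in PGRN knockout M1. With IL-4 it was at 7909.7, 7817 and 7924 in WT and 17928, 13848 and 17108 in the knockout. The groups did not overlap in either polarization, with differences of 1.02 ± 0.13 (M1, adjusted p = 3.33e-05) and 1.04 ± 0.13 (M2, adjusted p = 3.57e-05). The sialidase Neu1 rose by 0.50 and 0.46, and the beta-mannosidase Manba by 0.40 and 0.35. The fucosidase Fuca1 passed in M2 (0.33, adjusted p = 0.0305) and not in M1 (0.18); its M2 call was lost without any 1 of WT M2 replicates 2 or 3 or PGRN knockout M2 replicates 1 or 3. The glycogen enzyme Gaa (0.11, 0.11) and the aspartylglucosaminidase Aga (0.01, -0.15) passed in neither. Manba lost its calls with scaling by library totals, and that in M2 also without WT M2 replicate 1 or PGRN knockout M2 replicate 1 or 3.

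Of the 8 sphingolipid genes, 6 rose in both polarizations. The largest difference in M1 was that of Galc, the galactosylceramidase, at 1.01 ± 0.13 (adjusted p = 4.42e-05), with 0.79 in M2. It was at 602, 804 and 819.9 in WT M1 and 1518, 1315 and 1627 in PGRN knockout M1, and at 1413, 1509 and 1805 in WT M2 and 2909.8, 2387 and 2892 in PGRN knockout M2. The groups did not overlap, and Galc was lower in the M1 than in the M2 libraries of each genotype. The acid ceramidase Asah1 rose by 0.83 (0.55 without WT M1 replicate 1) and 0.62, the alpha-galactosidase Gla by 0.78 and 0.76, and the activator Gm2a by 0.65 and 0.84. Hexa, the alpha subunit of beta-hexosaminidase (0.39, 0.41), and the beta-galactosidase Glb1 (0.40, 0.28) rose less. The sulphatidase Arsa (-0.06, -0.04) and the acid sphingomyelinase Smpd1 (-0.02, -0.03) did not pass. Their 95% intervals were -0.20 to 0.07 and -0.17 to 0.13 in M1, which leaves out a 2-fold change.

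Of the 3 genes for other lipids and thioesters, Lipa and Pla2g15 rose and Ppt1 did not pass. Lipa (ENSMUSG00000024781, chr19:34492318-34527474), the acid lipase that releases cholesterol and fatty acids from engulfed lipoproteins, was at 4383, 6909 and 7189.8 in WT M1 and 14857, 13927 and 15612 in PGRN knockout M1. The M2 libraries were at 14438, 15889 and 16625 in WT and 35138, 30290.0 and 34900.5 in the knockout. No WT library reached the lowest knockout library of the same polarization. The difference of 1.30 ± 0.14 (M1, adjusted p = 9.89e-06) was the largest of the 29 there, and that in M2 was 1.09 ± 0.14 (adjusted p = 5.44e-05). Without WT M1 replicate 1 the M1 difference of Lipa was 1.07, under that of Pld3 (1.09). The lysosomal phospholipase Pla2g15 rose by 0.37 and 0.50, and the palmitoyl thioesterase Ppt1 was at 0.19 and 0.10.

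Of the 4 genes for nucleic acids, phosphate esters and peptides, 3 rose in M1 and 4 in M2. Pld3 (ENSMUSG00000003363, chr7:27532000-27553218), an exonuclease of single-stranded nucleic acids in the phospholipase D family, was at 9181, 8256 and 9994 in WT M1 and 19841, 18486 and 19729.7 in PGRN knockout M1. In M2 it was at 8463, 7516 and 8887 in WT and 22957, 19279.6 and 23036 in the knockout. Both sets of libraries were apart, and the differences were 1.09 ± 0.09 (M1, adjusted p = 4.33e-07) and 1.39 ± 0.09 (M2, adjusted p = 3.75e-08), the latter the largest of the 29 in M2.
Tpp1 (ENSMUSG00000030894, chr7:105744811-105752235), the tripeptidyl peptidase lost in a neuronal ceroid lipofuscinosis, was at 1993, 4075 and 4099 in WT M1 and 6960.2, 6078 and 7129 in PGRN knockout M1. M2 values were 4900.1, 5744 and 5572 in WT and 10583, 9195 and 10477 in the knockout. The groups did not overlap, although WT M1 replicate 1 lay far below the other WT M1 libraries, and the differences were 1.06 ± 0.19 (adjusted p = 0.000788) and 0.90 ± 0.19 (adjusted p = 0.00347). The lysosomal acid phosphatase Acp2 rose by 0.68 and 0.86. The endonuclease Dnase2a passed in M2 (0.43, adjusted p = 0.0286) and not in M1 (0.31, adjusted p = 0.10); without WT M1 replicate 1 it passed in M1 too, and its M2 call was lost without WT M2 replicate 2 or PGRN knockout M2 replicate 1 or 3.

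In all, 19 members were higher in the PGRN knockout in both polarizations, Dnase2a and Fuca1 passed in M2 alone, and 8 (Aga, Arsa, Arsb, Gaa, Hgsnat, Ids, Ppt1 and Smpd1) passed in neither. With all libraries in the fit, Lipa, Man2b1 and Pld3 were over 2-fold in both. The M1 and M2 differences come from separate libraries, and over the 29 members their Pearson correlation was 0.898 and Spearman's 0.909, as a description over genes that share those libraries. A test of the difference between polarizations (limma, interaction term) called 0 of 29 members, against 1.25% of all genes (0.469% higher and 0.783% lower in M1); 2 (6.90%) had an unadjusted p under 0.05, where 13.4% of all genes did, and voom called 0. These were Pld3 (-0.31, 95% interval -0.57 to -0.04) and Sgsh (0.40, 0.05 to 0.76). The widest positive value was that of Hgsnat (0.42, -0.07 to 0.92). Hgsnat was the 1 member called (adjusted p = 0.0229) in a limma fit with the replicate number as a block within each genotype, where 3.59% of all genes were, although the numbers did not pair the libraries in WT or the PGRN knockout. Without WT M1 replicate 1, 20 members were higher and 0 lower in M1. The 5 members over 2-fold in M1 with all libraries were then at 1.09 (Pld3), 1.07 (Lipa), 0.88 (Man2b1), 0.87 (Galc) and 0.71 (Tpp1). The other members named above as far lower in that library were at 0.55 (Asah1), 0.52 (Idua), 0.02 (Arsb) and -0.01 (Ids). Some members had a larger difference instead, such as Dnase2a (0.45) and Neu1 (0.57).

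The 6 members with CACGTG had a median PGRN knockout difference of 0.59 in M1 and 0.44 in M2, and the 19 with a promoter entry and no CACGTG 0.50 in each. Among the 6, Gaa and Arsa did not pass in either polarization and Sgsh rose by 0.99 in M1.

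**Figure D2:**
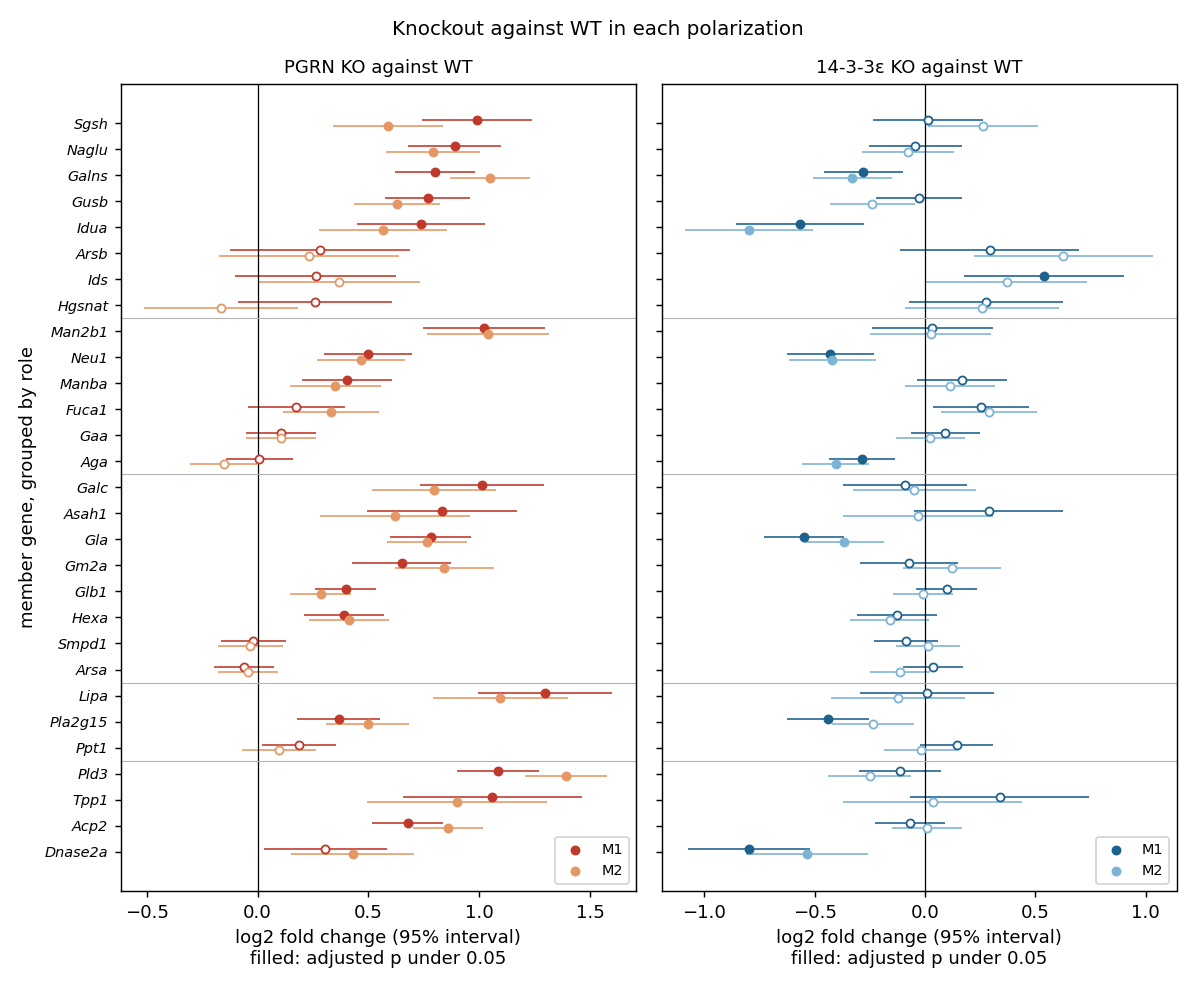
Log2 fold change of each member in the PGRN knockout and the 14-3-3ε knockout against WT (horizontal axis, with 95% intervals) in M1 and in M2; filled points have an adjusted p under 0.05. PGRN knockout points lie right of 0 for 27 members in M1, up to 1.30 for Lipa, and 14-3-3ε knockout points lie around 0, down to -0.80 for Dnase2a in M1 and Idua in M2.

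In the libraries labelled 14-3-3ε knockout most members did not pass, and those that did were mostly lower. In M1, 7 of 29 (24.1%) were lower, 1 was higher and 21 did not pass, against 9.31% lower and 12% higher of all genes. In M2, 6 of 29 (20.7%) were lower and 0 higher, against 3.37% and 3.32% of all genes. In either direction the members' share was 27.6% in M1, where the background was 21.3%, so the count there is near that of all genes, and 20.7% in M2, where it was 6.69%. That background was not matched to the members by level. The count of 0 higher members in M2 was 4 at an unadjusted p under 0.05 and 1 with voom. The median member difference was -0.03 in each polarization, against 0.07 (M1) and 0.00 (M2) over all genes. Libraries did not overlap for 8 members in M1 (32.8% of all genes) and 15 in M2 (31.6%). Summed levels were 94265 to 99489 in 14-3-3ε knockout M1, within the WT M1 range, and 103965 to 112565 in M2, overlapping the WT M2 range.

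Fitted with only the WT M1 and 14-3-3ε knockout M1 libraries, 1 member (Gla) passed, where 1.80% of all genes did. Without 14-3-3ε knockout M1 replicate 2 the M1 count was 5. In M2 it fell from 6 to 3 without WT M2 replicate 1 or 14-3-3ε knockout M2 replicate 2, and to 2 without WT M2 replicate 3 or 14-3-3ε knockout M2 replicate 3. With scaling by library totals the split was 2 higher and 5 lower in M1 and 2 higher (Arsb and Fuca1) and 3 lower in M2, where the median of all genes moved to 0.11. The summed macrophage level was 178359 to 254883 in 14-3-3ε knockout M1 and 68179 to 85291 in M2, below WT in both, and the summed stroma level 668572 to 802882 and 513808 to 649654, above WT in M1. The macrophage markers did not fall as a list: 1 of 7 was higher (Adgre1) and 3 lower (Cd68, Fcgr1 and Lyz2) in M1, with a median of 0.21, and 1 was lower (Lyz2) in M2, with a median of 0.11. Mean Lyz2, the abundant macrophage lysozyme, was 236182 in WT and 75310 in the knockout in M1 and 83995 and 20000 in M2. Its calls were lost with only the compared groups in the fit, and also without 14-3-3ε knockout M1 replicate 2 (M1) or WT M2 replicate 3 (M2). Without Lyz2, a gene chosen after its values were seen, the sums were 83070 to 132254 in WT M1 and 125224 to 145759 in 14-3-3ε knockout M1, and 49953 to 59562 in WT M2 and 53915 to 59669 in 14-3-3ε knockout M2, overlapping in both. Their part in the result was not tested.

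The 6 members lower in both polarizations were Dnase2a, Idua, Gla, Neu1, Aga and Galns. Dnase2a (ENSMUSG00000003812, chr8:84908560-84922915), the endonuclease that degrades the DNA of engulfed cells, was at 2568, 1624 and 2252 in WT M1 and 1254, 1199.6 and 1187 in the M1 libraries of the 14-3-3ε knockout. Its M2 values were 3461, 2855 and 3563 in WT and 2317, 2351 and 2126 in the knockout. The groups were apart in both, with differences of -0.80 ± 0.13 (adjusted p = 0.000915) and -0.53 ± 0.13 (adjusted p = 0.0229). The M2 call of Dnase2a was lost without any 1 of WT M2 replicates 1 or 3 or any 14-3-3ε knockout M2 library. Its exons share 30.0% of their bases with Mast1 on the other strand, and the sources used here do not give the strand used in counting.

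Idua (ENSMUSG00000033540, chr5:108660331-108684557) was at 669, 1050.2 and 1073 in WT M1 and 566, 645 and 636 in the M1 libraries of the 14-3-3ε knockout. Its M2 values were 784, 896 and 814 in WT and 465, 520.1 and 448 in the knockout. No knockout library reached the lowest WT library, and the differences were -0.57 ± 0.14 (adjusted p = 0.00972) and -0.80 ± 0.14 (adjusted p = 0.00246).
Gla (ENSMUSG00000031266, chrX:134588149-134601125) was at 3959.8, 3684 and 3676 in WT M1 and 2347, 2769.8 and 2629 in 14-3-3ε knockout M1, a difference of -0.55 ± 0.09 (adjusted p = 0.000619). In M2 it was at 2130.1, 1991 and 2525 in WT and 1751, 1696 and 1679 in the knockout, a difference of -0.37 ± 0.09 (adjusted p = 0.0181), which did not pass without WT M2 replicate 3 or any 14-3-3ε knockout M2 library. Groups were apart in both polarizations.

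Neu1 (ENSMUSG00000007038, chr17:34931253-34935953) was at 3117, 2401 and 3036 in WT M1, 2054, 2139 and 2118 in 14-3-3ε knockout M1, 1561, 1314 and 1497 in WT M2 and 1098, 1143 and 1021 in 14-3-3ε knockout M2. Aga (ENSMUSG00000031521, chr8:53511727-53523421) was at 1048, 1014 and 1067 in WT M1 against 886, 799 and 886 in the knockout, and at 732, 671 and 662 in WT M2 against 501, 531 and 526 in the knockout. For both genes every knockout library was under every WT library of its polarization. The falls of Neu1 were -0.43 ± 0.09 and -0.42 ± 0.09 and those of Aga -0.28 ± 0.07 and -0.40 ± 0.07, with adjusted p from 0.00309 for Aga in M2 to 0.0143 for Neu1 in M2. Neu1 did not pass in M2 without WT M2 replicate 1 or 3 or 14-3-3ε knockout M2 replicate 3, and Aga did not pass in M1 without 14-3-3ε knockout M1 replicate 2. Galns (-0.28 and -0.33) lost its calls under several omissions of 1 library, in M1 WT replicate 3 or any 14-3-3ε knockout library, and in M2 WT replicate 1 or 3 or any 14-3-3ε knockout library.

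Pla2g15 (ENSMUSG00000031903, chr8:106150399-106164715) was lower in M1 alone by the test, at 3822, 3169 and 3578 in WT M1 and 2803, 2684 and 2308 in 14-3-3ε knockout M1, a difference of -0.44 ± 0.09 (adjusted p = 0.00347); its M2 difference was -0.24. Ids (ENSMUSG00000035847, chrX:70343069-70365084), the iduronate sulphatase, was the 1 higher member in M1, at 513, 918 and 905 in WT and 1034, 1150.3 and 1099.6 in the knockout, a difference of 0.54 ± 0.17 (adjusted p = 0.0356). That call was lost without WT M1 replicate 1, the lowest of the WT libraries, without any 14-3-3ε knockout M1 library, and with voom. The interaction term called 0 of 29 members for the 14-3-3ε knockout (0.286% of all genes, 0.141% higher and 0.145% lower in M1), with 0 at an unadjusted p under 0.05 and 0 by voom. Members whose M1 and M2 calls differ, such as Pla2g15 and Ids, were thus not shown to differ between polarizations.

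**Figure D3:**
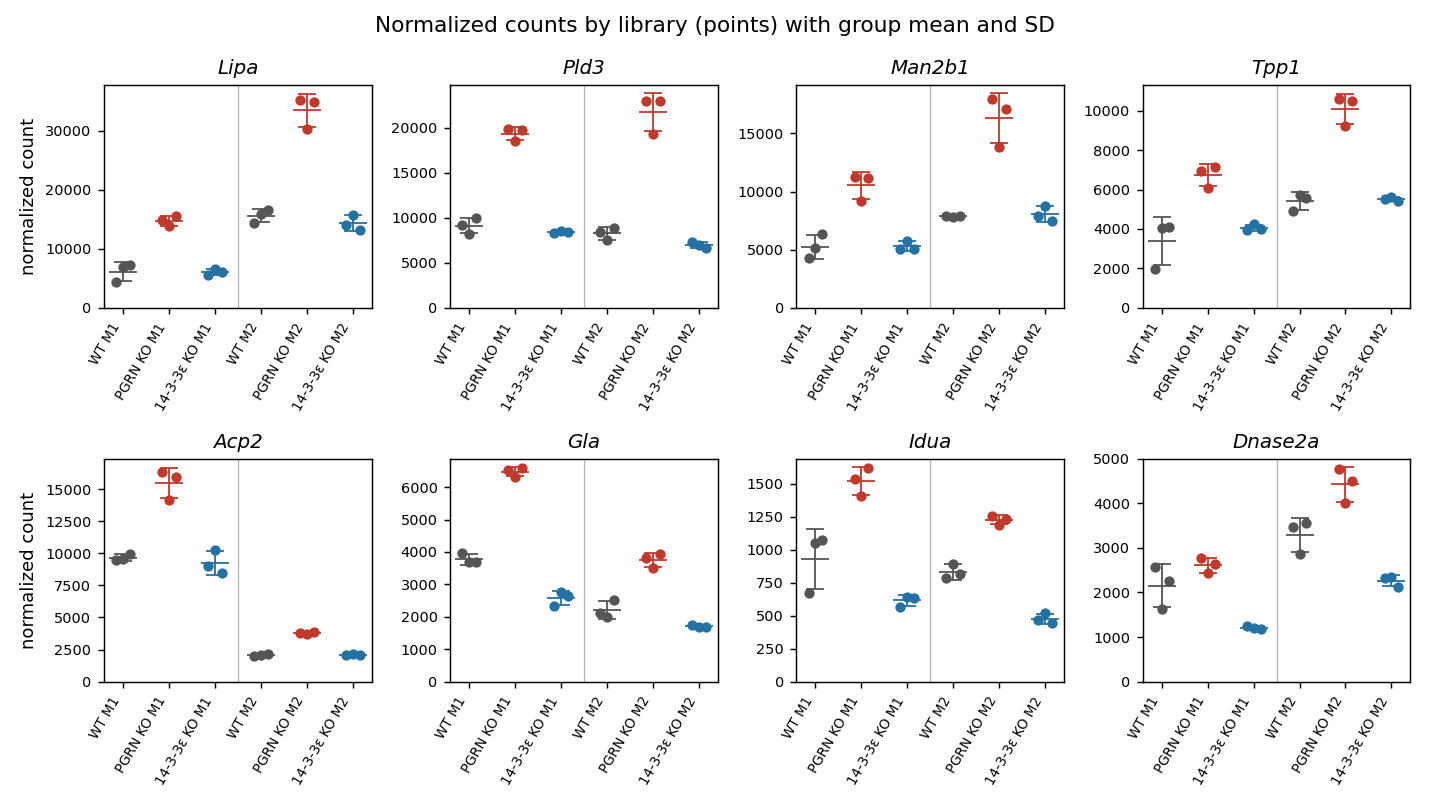
Normalised counts of 8 members in each library (points) with group mean and SD (bars), for the 3 M1 groups and the 3 M2 groups; each vertical axis starts at 0. Lipa, Pld3, Man2b1 and Tpp1 are highest in the PGRN knockout in both polarizations, Acp2 is higher in every M1 library than in any M2 library, and Idua and Dnase2a are lowest in the 14-3-3ε knockout.

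Set against each other, the knockouts differed at most members. In M1, 20 of 29 (69.0%) were lower in the 14-3-3ε than in the PGRN knockout and 0 higher, against 12.5% and 12.5% of all genes. In M2, 19 of 29 (65.5%) were lower and 0 higher, against 9.92% and 8.29%. The counts of 0 were 0 (M1) and 1 (M2, Hgsnat) at an unadjusted p under 0.05 and 0 and 0 with voom. The median member difference was -0.72 in each, where that of all genes was 0.04 (M1) and 0.00 (M2). Libraries did not overlap for 22 members in each polarization, where 43.3% (M1) and 39.5% (M2) of all genes did not. Gla was at 6518, 6312 and 6604 in PGRN knockout M1 and Idua at 1539, 1404 and 1622, and both were under these values in every 14-3-3ε knockout M1 library given above. Their differences were -1.33 ± 0.09 for Gla and -1.30 ± 0.14 for Idua in M1, with -1.13 ± 0.09 and -1.36 ± 0.14 in M2. Pld3 differed by -1.20 ± 0.09 and -1.64 ± 0.09, and Galns by -1.08 ± 0.08 and -1.38 ± 0.08. These comparisons use the same knockout libraries as those with WT. With scaling by library totals the splits were 1 higher (Arsa) and 16 lower in M1 and 1 higher (Hgsnat) and 16 lower in M2, and the medians of all genes 0.19 and 0.14.

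Polarization moved members in both directions. In WT, 8 of 29 were higher in M1, 12 were lower and 9 did not pass, 69.0% in either direction against 38.9% of all genes (18.9% higher, 20.0% lower). Here too the genes of the background were not matched to the members by level. In the PGRN knockout 7 were higher and 10 lower (58.6% against 37.5% of all genes, 18.0% higher and 19.5% lower), and in the 14-3-3ε knockout 9 were higher and 11 lower (69.0% against 30.0%, 15.6% higher and 14.4% lower). Median differences were -0.20 in WT, where that of all genes was -0.04, and -0.09 in each knockout, where those of all genes were -0.04 (PGRN) and 0.03 (14-3-3ε). Libraries did not overlap for 21, 20 and 25 members in WT, the PGRN and the 14-3-3ε knockout, against 40.2%, 51.3% and 49.3% of all genes. Scaling by library totals shifts the median of all genes to -0.20 in WT, -0.22 in the PGRN knockout and -0.16 in the 14-3-3ε knockout, and the splits of higher and lower members then became 6 and 15, 5 and 16, and 5 and 14. Without WT M1 replicate 1 the WT split was 9 higher and 10 lower, and with only the compared groups in the fit 15 of 29 passed in WT.

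Acp2, Aga, Gaa, Gla, Neu1, Ppt1 and Smpd1 were higher in M1 in all 3 genotypes. Acp2 (ENSMUSG00000002103, chr2:91202885-91214098), whose enzyme removes phosphate from many substrates, was at 9516, 9529 and 9972 in WT M1 and 2014, 2081 and 2146 in WT M2. In the PGRN knockout its M1 libraries were at 16334, 14176 and 15963 and its M2 libraries at 3761, 3686 and 3868, and in the 14-3-3ε knockout they were at 8992, 10297 and 8446 (M1) and 2096, 2140.4 and 2046 (M2). Every M1 library of any genotype was above every M2 library. The differences of 2.22 ± 0.08, 2.04 ± 0.08 and 2.14 ± 0.08 were the largest rises of the 29 in each genotype, with adjusted p of 2.67e-13, 9.22e-13 and 5.13e-13. Its exons share 12.6% of their bases with Ddb2 on the other strand.

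The sialidase Neu1, at 4118, 3805 and 4079 in M1 libraries of the PGRN knockout and 2051, 1887 and 2086 in M2, rose by 0.96, 0.99 and 0.95 in WT, PGRN knockout and 14-3-3ε knockout. Gla, at 3814, 3495 and 3931 in PGRN knockout M2, rose by 0.77, 0.79 and 0.59. Aga, at 1086, 1013 and 1046 in M1 libraries of the PGRN knockout and 601, 599 and 658 in M2, rose by 0.60, 0.76 and 0.72. For these 3 genes all M1 libraries of a genotype lay above all its M2 libraries, and the largest adjusted p among the 9 tests was 3.47e-05. Smpd1 rose by 0.58, 0.59 and 0.48, and its 14-3-3ε knockout call was lost with scaling by library totals. Gaa (0.37, 0.37, 0.44) and Ppt1 (0.33, 0.41, 0.49) rose less, and with scaling by library totals Gaa passed in no genotype and Ppt1 in the 14-3-3ε knockout alone.

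Dnase2a, Galc, Gusb, Hexa, Lipa, Man2b1, Manba and Pla2g15 were lower in M1 in all 3 genotypes. The WT call of Hexa was lost with only the compared groups in the fit and without WT M1 replicate 2. Leaving out WT M1 replicate 2 together with WT M2 replicate 3 removed it too. The 14-3-3ε knockout call of Hexa was lost without M1 replicate 2 or 3 or M2 replicate 1 or 2 of that genotype. Lipa fell most, with differences of -1.38 ± 0.14 in WT, -1.17 ± 0.14 in the PGRN knockout and -1.24 ± 0.14 in the 14-3-3ε knockout, where it was at 5529, 6575 and 6119 in M1 and 14115, 15812 and 13246 in M2. Its adjusted p was 6.50e-07, 4.31e-06 and 2.81e-06, and no M1 library of a genotype reached its lowest M2 library. Gusb (ENSMUSG00000025534, chr5:129989011-130003049) was at 4865, 4683 and 5517 in WT M1 and 10808, 10234 and 12015 in WT M2. In the PGRN knockout it was at 9061, 7629.7 and 8951 (M1) and 18179, 15292 and 17653 (M2), and in the 14-3-3ε knockout at 4825, 5123 and 4797 (M1) and 9022, 9802 and 9161 (M2). M1 and M2 libraries of each genotype were apart, with differences of -1.13 ± 0.09 in WT, -0.996 ± 0.09 in the PGRN knockout and -0.92 ± 0.09 in the 14-3-3ε knockout. Galc (ENSMUSG00000021003, chr12:98202294-98259459) differed by -1.09 ± 0.13, -0.88 ± 0.13 and -1.13 ± 0.13, and was at 672, 788 and 619 in 14-3-3ε knockout M1 and 1437, 1557 and 1555 in M2. Dnase2a, at 2768, 2428 and 2641 in M1 libraries of the PGRN knockout and 4781, 4002 and 4494 in M2, differed by -0.63, -0.76 and -0.90. Tpp1 differed by -0.75 in WT and -0.59 in the PGRN knockout and did not pass in the 14-3-3ε knockout (-0.44). The PGRN knockout call was lost without its M1 replicate 2 or its M2 replicate 1 or 3. Without WT M1 replicate 1 the WT difference of Tpp1 was -0.40. With only the compared groups in the fit, Tpp1 did not pass in WT and passed in both knockouts.

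With all libraries in the fit, Arsa, Asah1, Fuca1, Hgsnat, Ids, Idua and Naglu passed in no genotype. Without WT M1 replicate 1, Idua passed in WT (0.35, limma adjusted p = 0.0039). With only the compared groups in the fit, Idua passed in both knockouts and Ids in the PGRN knockout. With scaling by library totals, Hgsnat and Ids were lower in WT, Arsa and Ids in the PGRN knockout and Hgsnat in the 14-3-3ε knockout. The remaining 7 passed in some: Sgsh (-0.57, -0.17, -0.82 in WT, PGRN and 14-3-3ε knockout), Galns (0.39, 0.14, 0.44), Arsb (-0.55, -0.50, -0.88), Glb1 (-0.20, -0.09, -0.09), Gm2a (-0.27, -0.46, -0.46), Pld3 (0.14, -0.16, 0.28) and Tpp1. The interaction terms of each knockout against WT called none of them, and the difference between the knockouts was not tested. A limma fit with the replicate number as a block within each genotype added calls. In the 14-3-3ε knockout, where deviations of same-numbered libraries correlated, these were Hgsnat (-0.36, adjusted p = 0.000568), Idua (0.37, adjusted p = 0.0149) and Tpp1 (-0.44, adjusted p = 0.0295). Whether same-numbered libraries were pairs was not tested. Among the members that had passed in no genotype, the block also called Hgsnat and Ids in WT and Ids and Idua in the PGRN knockout. Arsb and Glb1 lost their WT calls without WT M1 replicate 1. Arsb shares 32.3% of its exon bases with Gm26527, Sgsh shares 21.6% with Card14, Arsa 18.8% with C230037L18Rik and Hexa 12.8% with Tmem202, all on the other strand.

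**Figure D4:**
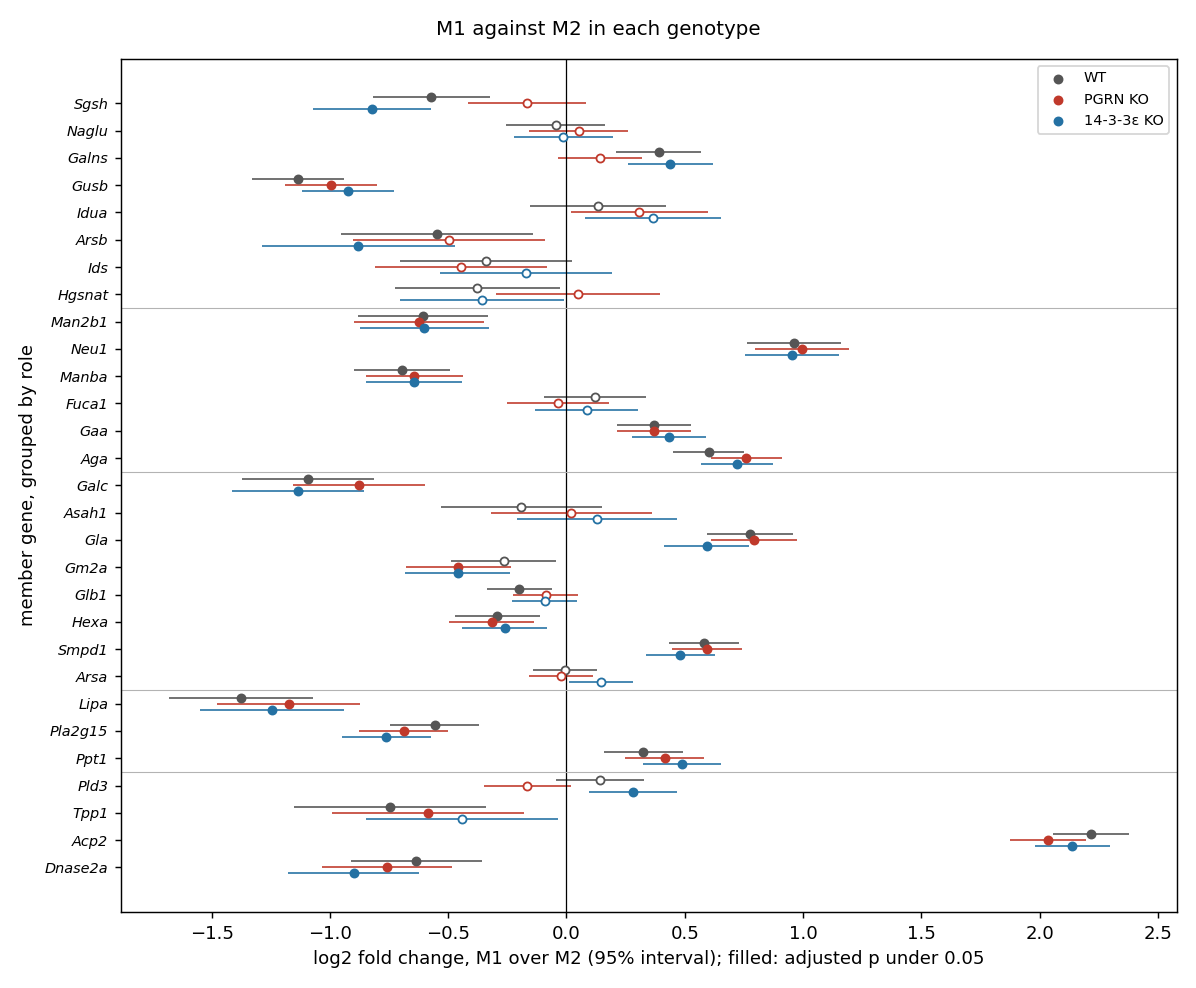
Log2 fold change of each member between M1 and M2 (horizontal axis, with 95% intervals) in WT, PGRN knockout and 14-3-3ε knockout; filled points have an adjusted p under 0.05. Acp2 stands alone at 2.04 to 2.22, and Lipa, Gusb and Galc lie furthest to the left in each genotype.

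Levels of different genes were compared as normalised counts per kilobase of exon, with exon lengths from GENCODE M21. The length holds every base in an exon of any transcript of the gene, 14879 for Galc and 1996 for Hexa. The ranks depend on that choice. Hexa was the highest member and Pld3 the next in all 6 groups, with Hexa at 5790.1 ± 601 (SD, n = 3) in WT M1 and 9413 ± 661 in PGRN knockout M2, and Pld3 at 3127 ± 297 and 7441 ± 734. Galc was the lowest in all 6, at 49.9 ± 8.16 in WT M1 and 106 ± 13.7 in WT M2. Before division by length it was not the lowest in WT M2, with a mean of 1576 normalised counts against 688 for Aga. Acp2 ranked 3 in each M1 group, at 1865 ± 50.1 in WT, and 18 to 20 in the M2 groups, at 401 ± 12.7 in WT. Lipa ranked 11 in WT M1, 4 in PGRN knockout M1 and 11 in 14-3-3ε knockout M1, and 3 or 4 in the M2 groups. In WT M1 Lipa was at 909 ± 228 per kilobase and in PGRN knockout M1 at 2183 ± 124.

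Lists of other genes of the pathway moved in the same comparisons. Of 21 other lysosomal hydrolases, 20 were tested (Neu4 had 0 reads), and 15 were higher and 1 lower in the PGRN knockout in M1, and 13 and 1 in M2, with medians of 0.52 and 0.40, where 14.2% of all genes were higher and 11.1% lower in M1 and 11.1% and 8.30% in M2. Hyal1, a hyaluronidase, rose by 1.30 and 1.41, and Smpdl3a, a phosphodiesterase of the acid sphingomyelinase family, by 0.86 and 0.80. Naaa, an amidase of N-acylethanolamines, was the lower gene in each, at -0.66 and -0.37, and its M2 call was lost without WT M2 replicate 1 or 3 or any PGRN knockout M2 library. Rnaset2a and Rnaset2b are near-identical copies between which reads could be split, and their counts are uncertain. Of 11 genes for sorting, maturation and activation, 7 were higher in each polarization, among them the saposin precursor Psap (1.33, 1.08), the receptor Sort1 (0.78, 1.15) and the phosphotransferase Gnptab (0.72, 0.72). Of 7 genes for transcriptional control, 5 were higher in M1, and 5 were higher and 1 lower in M2. Fnip2, a partner of folliculin, rose by 1.25 and 1.06, Flcn, folliculin, by 0.49 and 0.52, and Mitf by 0.58 and 0.52. Tfe3 did not pass in either (0.14, 0.19), and Tfeb passed in M2 (0.45) and not in M1 (0.39). The M2 call of Tfeb was lost without WT M2 replicate 2 or PGRN knockout M2 replicate 1 or 3. These lists and examples were chosen with earlier results of these data known.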

How the data were processed

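The 18 libraries were RNA-seq of total RNA, 3 for each of 6 groups, and every column of the table was matched to a library by its label. RSEM 1.3.1, STAR and DESeq2 are named, without roles, in the submitters' processing notes, and so is the build GRCh38. The table's gene IDs are mouse Ensembl IDs. The sources used here do not give the build behind its counts, and no coordinates of GRCh38 were used. The values the authors deposited are log2 of a normalised count plus 1, which was read from the values. They turn back into whole reads for 100% of values to within 0.1 of a read, and depth comes from these reads. The design allowed for counts or normalised values, and the test for normalised values was used.

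A gene was tested if 3 or more libraries had a normalised count of 1 or more, which held for 21336 of 43309. The test was limma 3.58.1 (R 4.3.3, statmod 1.5.0), with a variance trend and robust fitting, on log2(normalised count + 1). A single fit held the 6 groups. The p-values of each comparison were adjusted by Benjamini and Hochberg's method over every gene tested, and 0.05 was the threshold. Alternatives were a pseudocount of 0.1, no filter on low values, a filter at 5 CPM, scaling by library totals, voom weights on the recovered reads, thinning to the shallowest library, only the compared groups, a replicate block over all groups, omission of the libraries rich in ribosomal RNA, and omission of each library in turn. Deviations of M1 and M2 libraries with the same replicate number, taken from the labels, correlated at 0.400 to 0.530 in the 14-3-3ε knockout (3 of 3 pairs). The values were mixed in WT (-0.355 to 0.348) and the PGRN knockout (-0.09 to 0.339). A block within each genotype was therefore added after seeing the data for M1 against M2 and the interactions. Whether same-numbered libraries were pairs was not tested. The highest correlation in WT (0.480) was of M1 replicate 2 with M2 replicate 3, the libraries rich in ribosomal RNA. The script was tested on simulated data. Tables and figures were made with pandas 2.3.3, numpy 2.4.6, matplotlib 3.10.9 and scipy 1.17.1 in Python 3.11.15, with seed 1.

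Per-library values are given for the 4 largest rises and 4 largest falls, in each of the first 7 comparisons, among called members whose libraries do not overlap; a few values beyond that rule were added. Galc in the PGRN knockout was chosen after its values were seen. Markers and 3 pathway lists were fixed with the design. The members and lists were chosen with earlier results of these data known. GENCODE M21 (GRCm38) held 42425 of the gene IDs and gives positions and exon lengths; promoters are RefSeq's on GRCm38.p6. Adgre1 and Jchain are listed in the table under older symbols. Of the 25 promoters, 23 end in bases found in a GENCODE transcript of the gene. Some genes of the pathway lists are counted with them and not reported here by name.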

Additional observations from a re-analysis of the deposited data

Results flagged for a closer look

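For 2 genes of the lists, Tfec and the deleted gene Grn, the difference between PGRN knockout and WT differed between M1 and M2 by the interaction term of limma. Tfec, a relative of TFEB, was higher in the PGRN knockout in M1 (0.68) and lower in M2 (-0.45), an M1 minus M2 value of 1.13 ± 0.18 (adjusted p = 0.00724). In M1 the WT libraries were at 236, 227 and 219 normalised counts and the PGRN knockout libraries at 349.9, 403 and 344, and in M2 at 748, 752 and 904 and 637, 585 and 538, with no overlap in either. Its M2 call was lost without WT M2 replicate 3 or PGRN knockout M2 replicate 2 or 3. Grn, the deleted gene, had an M1 minus M2 value of 1.90 ± 0.31 (adjusted p = 0.00974), its knockout libraries being at 497, 212 and 231 in M1 and 24.4, 23.9 and 32.2 in M2. That value sets the reads left of the deleted gene against WT, and is not a response to loss of progranulin. The Grn call was lost with only the compared groups in the fit and with reads thinned to the shallowest library.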

How the results depend on the processing

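The 150 calls of members kept their direction under the 28 alternatives, 1 of which (a replicate block within each genotype) was chosen after seeing the data and applies to 5 comparisons. Over these, 3996 repeats kept the call and 111 lost it. Many of these repeats had little room to differ, as omitting a library leaves the fold change of comparisons without its group unchanged. The totals are therefore not a measure of stability. Apart from omissions of 1 library and the added block, the one alternative that moved a count of called members by more than 1.5 times was a fit of the compared groups alone, which left 1 of 8 members called in the 14-3-3ε knockout in M1; the cause was not tested. Leaving out each library in turn gave 18 to 21 called members for WT M1 against M2, 16 to 20 for the PGRN knockout and 18 to 22 for the 14-3-3ε knockout. The same gave 19 to 20 for the PGRN knockout against WT in M1, 18 to 22 in M2, 5 to 8 for the 14-3-3ε knockout in M1 and 2 to 9 in M2. Between the knockouts it gave 19 to 22 in M1 and 18 to 21 in M2, and 0 for both interactions. With only the compared groups the PGRN knockout called 13 members in M1, where 10.0% of all genes passed.

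Over all groups the replicate numbers did not pair the samples: deviations of same-numbered libraries correlated at a median of -0.03 over 45 pairs, with 10 pairs over 0.1. With the replicate number as a block the PGRN knockout called 20 members in M1 and 21 in M2, the 14-3-3ε knockout 8 and 7, and 0 of the 150 calls were lost. With the block within each genotype, limma called 23 members for M1 against M2 in WT, 22 in the PGRN knockout and 23 in the 14-3-3ε knockout, 1 (Hgsnat) for the interaction of the PGRN knockout and 0 for that of the 14-3-3ε knockout; the cause was not tested. It lost 0 of the 57 member calls it repeated.

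Of 128 calls of the 21 genes named from the lists, 3397 repeats kept the call, 107 lost it and 0 reversed. These totals include the same repeats with little room to differ. Reads thinned to the shallowest library, of 5.16 M reads, kept 146 of the 150 calls of members.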

Other observations

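The other pathway genes also moved with polarization. In WT, 12 of the 20 other lysosomal hydrolases tested were higher in M1 and 1 was lower, with a median of 0.45, where 18.9% and 20.0% of all genes were. Pld4, a nucleic acid exonuclease related to Pld3, was at 10506, 8028 and 10140.1 normalised counts in WT M1 and 2622, 1821 and 1958 in WT M2, a difference of 2.17 ± 0.14 (limma, adjusted p = 1.68e-09). Smpdl3a, a phosphodiesterase of the acid sphingomyelinase family, was higher in M1 by 1.71, and Acp5, the tartrate-resistant acid phosphatase of macrophages and osteoclasts, by 1.62. Of the 11 sorting and activation genes, 4 were higher and 4 lower. Npc2, which carries cholesterol inside the lysosome, was higher by 2.08, and Sort1 was lower, at -1.83. Of the 7 genes for transcriptional control 1 was higher in M1, Tfe3 (0.52), and 5 were lower, among them Tfec (-1.81) and Tfeb (-0.86). The examples were chosen after their values were seen.

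In the 14-3-3ε knockout, 3 of the 20 other hydrolases were higher and 4 lower in M1, where 12% of all genes were higher and 9.31% lower, and 2 and 2 in M2, where 3.32% and 3.37% were. Plbd1, a phospholipase B-like gene, was at 268, 199.8 and 174 in WT M1 and 1297, 1092 and 713 in 14-3-3ε knockout M1, and in M2 at 141, 63.5 and 42.3 in WT and 307, 264 and 132 in the knockout. Its differences were 2.25 ± 0.38 (adjusted p = 0.00148) and 1.59 ± 0.38 (adjusted p = 0.0229), and the M2 call was lost without WT M2 replicate 2 or 3 or 14-3-3ε knockout M2 replicate 1 or 2.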
